A study of Triticum aestivum and Aegilops tauschii and Triticum carthlicum with 33 samples.

Results

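The comparison described here sets the synthetic hexaploid wheat Allo-960S7 against 30A, the Aegilops tauschii line that gave it its D genome. Its members are the arrays that carry these labels, 6 of the 33 in the series, 3 of Allo-960S7 and 3 of 30A. Allo-960S7 is the selfed generation 7 of a newly made hexaploid with the genomes BBAADD, and 30A is a diploid that carries D alone. The tetraploid parent, Blackbird, belongs to T. turgidum ssp. carthlicum and carries BBAA. The Allo-960 mix is RNA of both parents put together in a tube, 2 parts Blackbird to 1 part 30A. A second cross was read beside the first, with XX329, a hexaploid resynthesized from the tetraploid Extracted-tetra, and its diploid parent TQ18, another Aegilops tauschii line. The tetraploids TTR13 and TD265 served to sort probe sets by genome, and all arrays entered the estimate of the spread. Every group had 3 arrays labelled as biological replicates. All plants were untreated and grew in chambers with 16 h days, at 24 °C in the light and 20 °C in the dark. The leaf was the tissue in every group, and each hexaploid is a single synthetic line. Nothing in the labels says whether the replicates are single plants or pools, so the errors given hold for these samples only. Each SE rests on the spread shared over all groups, and each ± value is the SD of the 3 arrays of a group.

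Bread wheat is an allopolyploid: it holds complete chromosome sets from separate grass species that were joined by crossing and genome doubling. Most of its genes are therefore present as homoeologs, which are corresponding copies on the B, A and D genomes. When a diploid D genome is joined to BBAA, transcripts of the added genomes appear, and transcripts made by D become a smaller part of the RNA. The array used, the Affymetrix wheat GeneChip, measures each transcript with a probe set, a group of short probes. Some probe sets match several homoeologs and others a single copy, and how well each probe set matches each genome was not tested here. Equal amounts of RNA were labelled for each array, so every level is relative to total leaf RNA. Fewer cells of a type and less RNA per cell cannot be told apart in such samples.

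Leaf identity was clear in both groups. PsbO and PsbP, proteins of the oxygen-evolving complex, lay at 14.38 and 14.41 log2 units in Allo-960S7 and at 14.41 and 14.32 in 30A. Of 8 seed storage and grain proteins, 7 averaged 2.61 to 4.67 in Allo-960S7 and 2.59 to 4.92 in 30A, mostly under the array median of 4.47, while the avenin-like ALP was bright at 10 in Allo-960S7 and 9.88 in 30A. Arrays of a group correlated at r of 0.9935 to 0.9954 in Allo-960S7 and 0.9908 to 0.9923 in 30A, and arrays of unlike groups at 0.9022 to 0.905. The spiked hybridisation controls averaged 8.94 ± 0.146 in Allo-960S7 and 9.04 ± 0.0648 in 30A (SD, n = 3 each). The 12 arrays of Allo-960S7, Allo-960 mix, Blackbird and 30A read 8.64 to 9.11 for these controls, and the other 21 arrays read 9.35 to 10, so both compared groups lie in one set of arrays. The 3′ minus 5′ actin signal was -1.24 ± 0.1 in Allo-960S7 and -1.5 ± 0.175 in 30A, and whether it tracked RNA integrity across these genomes was not tested. That of gapdh went the other way, at -2.57 ± 0.0721 in Allo-960S7 and -2.33 ± 0.0188 in 30A. For ef1a it was 0.86 ± 0.0457 in Allo-960S7 and 0.71 ± 0.408 in 30A. With the actin signal as a covariate, 19839 probe sets were called, in place of 21101 (34.5% of those tested) without it.

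More transcripts were lower than higher in the hexaploid, but the higher ones differed by more. Of 61179 probe sets tested, 21101 (34.5%) were called at an adjusted p under 0.05, 7542 (12.3%) higher and 13559 (22.2%) lower in Allo-960S7 than in 30A. The median difference among those called higher was 1.21 log2 units, or 2.31-fold, and among those called lower -0.69, or 1.61-fold. Calls of at least 4-fold ran the other way in number, with 2383 (3.9%) higher and 739 (1.21%) lower, and at 2-fold or more they were 4372 (7.15%) and 4089 (6.68%). Over all probe sets the median difference was -0.13, although both groups had an array median close to 4.47. The split of calls depended on scaling: 35.7% were higher on the deposited values, against 48.7% (7302 higher and 7700 lower, 15002 in all) when each array was centred on its hybridisation controls. That centring moved the median of all probe sets by 0.10, to -0.03.

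Transcripts enriched in BBAA wheats were far higher in the hexaploid than in 30A, and those enriched in the D genome were lower. For this comparison, probe sets were sorted by arrays outside the comparison. Those called D-enriched were 4-fold or more higher in TQ18 than in each of TTR13 and TD265, with an adjusted p under 0.05 both times, and BBAA-enriched ones 4-fold or more lower. The 2385 BBAA-enriched probe sets had a median difference of 2.81 log2 units (7.02-fold), with 2.83, 2.76 and 2.83 when each Allo-960S7 array was set against the mean of 30A. Of them 2259 (94.7%) were called higher and 21 (0.881%) lower, where 12.3% and 22.2% of all probe sets were. The 2086 D-enriched probe sets had a median of -1.60 (3.04-fold lower), with -1.58, -1.64 and -1.59 by array. Of these 1877 (90%) were called lower, 21 (1.01%) higher and 188 neither. A 3-fold dilution equals 1.58 log2 units. The medians depended on the class threshold: with a 2-fold in place of a 4-fold minimum, the BBAA-enriched median was 1.77 and the D-enriched median -1.19.

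D transcripts did not all move by the same amount. In the D-enriched class the middle 50% of differences ran from -2.01 to -1.15, and the 10th and 90th percentiles were -2.38 and -0.59. The hexaploid lay below the 3-fold point for 1069 of the 2086 (51.2%), and 160 (7.67%) stayed within 0.5 log2 units of 30A. The class had a median level of 6.54 in Allo-960S7, 6.64 in the Allo-960 mix, 4.56 in Blackbird and 8.25 in 30A. The BBAA-enriched class lay at 7.62 in Allo-960S7, 7.82 in the Allo-960 mix, 8.28 in Blackbird and 4.47 in 30A. In each class the hexaploid stood between its parents and near the mixed RNA. None of these 4 groups took part in the sorting.

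**Figure D1:**
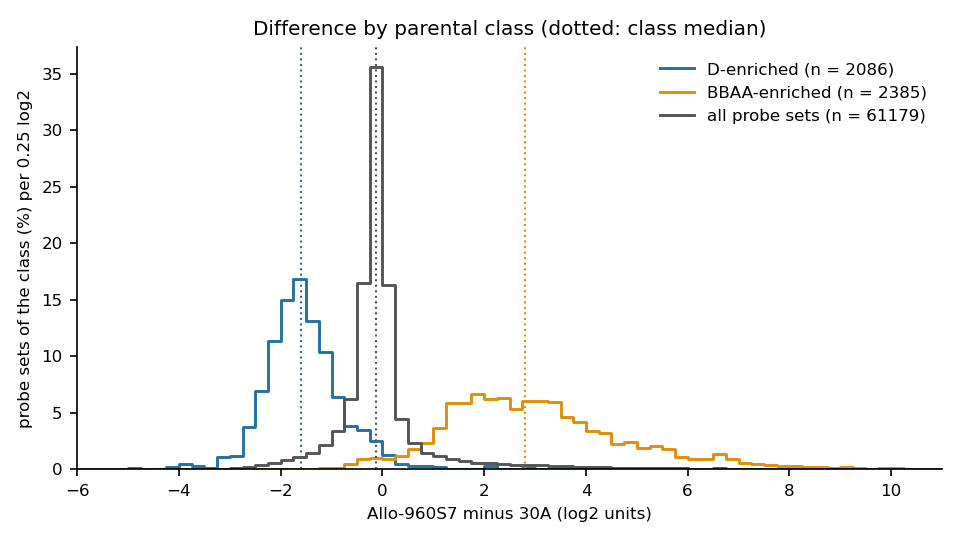
Share of probe sets (y axis, percent per 0.25 log2 step) by the difference Allo-960S7 minus 30A (x axis, log2 units) for BBAA-enriched, D-enriched and all probe sets, with class medians dotted. The BBAA-enriched class is centred at 2.81, the D-enriched class at -1.60 and all probe sets at -0.13.

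The most extreme transcripts have no gene symbol in the platform annotation, and they are given here by probe set because of the size of their difference. Ta.30807.1.S1_at read 13.56, 13.43 and 13.06 in Allo-960S7 and 3.15, 2.99 and 2.81 in 30A, a difference of 10.37 (SE 0.13, adjusted p 2.59e-31). Ta.28363.1.A1_at read 13.74, 13.72 and 13.68 in Allo-960S7 and 4.02, 3.6 and 3.3 in 30A (10.07, adjusted p 2.05e-25). Both were among the brightest signals of the hexaploid leaf and lay under the array median in all 30A arrays. At the other end, Ta.9449.1.A1_at read 4.57, 4.43 and 4.66 in Allo-960S7, 7.94, 8.23 and 7.66 in the Allo-960 mix, 3.19, 3.55 and 3.52 in Blackbird and 10.01, 9.96 and 9.52 in 30A. Ta.24245.1.A1_at read 2.88, 2.93 and 3.14 in Allo-960S7, 6.15, 6.54 and 5.95 in the Allo-960 mix, 3.27, 3.08 and 2.9 in Blackbird and 8.25, 8.19 and 8.13 in 30A. Both were far lower in the hexaploid than in the mixed RNA. The first lay near the array median there and above every Blackbird array, while the second lay under the median and overlapped Blackbird. Their differences from 30A were -5.28 (SE 0.64, adjusted p 5.58e-08) and -5.21 (SE 0.21, adjusted p 7.12e-19).

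The annotation put 1273 probe sets on 771 genes, of which 131 were called higher and 221 lower (45.7% called), with a median difference of -0.15. Among them 102 carried a gene name or alias, and each was read from 1 probe set. Of these 102, 13 were called higher (12.7%, where 12.3% of all probe sets were) and 29 lower (28.4%, against 22.2%), with a median of -0.13 that equals that of all probe sets. The arrays of the groups did not overlap for 20 genes higher and 41 lower, where 15.5% and 33.7% of all probe sets did so. The share called among named genes was near that of the whole array in the higher direction and somewhat above it in the lower.

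Detoxification and metal handling held the named gene with the largest difference on the probe set read for each gene. The gene lgul encodes a glyoxalase, an enzyme that clears methylglyoxal, a toxic by-product of sugar metabolism. It read 10.74, 10.99 and 10.94 in Allo-960S7, 10.68, 10.57 and 10.96 in the Allo-960 mix, 10.93, 10.92 and 11.24 in Blackbird and 6.58, 6.41 and 6.07 in 30A. The arrays of the hexaploid, the mix and Blackbird lay close together and all far above 30A, with a difference of 4.54 (23.2-fold, SE 0.2, adjusted p 8.53e-18). A second probe set of lgul differed by only 0.02 and was not called. DMAS1 makes deoxymugineic acid, the compound that grasses release to take up iron. It read 7.58, 7.51 and 7.58 in Allo-960S7 and 4.69, 4.61 and 4.22 in 30A (3.05, 8.26-fold, SE 0.18, adjusted p 1.48e-14), while 2 further probe sets of the gene, at 0.24 and -0.03, were not called. The 30A arrays of DMAS1 lay near the array median, so the size of that fold is not secure. PCS1, which makes the metal-binding phytochelatins, was lower, at 7.77 ± 0.0631 in Allo-960S7 and 8.65 ± 0.189 in 30A (-0.89, adjusted p 0.00103).

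Other antioxidant and detoxification genes moved little on their chosen probe sets. Of the 5 in this list 1 was called higher and 1 lower, where 12.3% and 22.2% of all probe sets were. CAT1, a catalase, averaged 13.70 in Allo-960S7 and 13.78 in 30A and was not called. GSTZ1, a glutathione transferase, was lower at 10.06 ± 0.106 in Allo-960S7 against 10.48 ± 0.0539 in 30A (-0.41, adjusted p 0.00248). That call was lost when arrays were centred on the hybridisation controls (-0.32), and its sign turned over the mean of all probe sets of the gene (2.98).

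Regulators of transcription and a set of chromatin proteins were also among the higher genes. WZF1, a zinc finger protein, read 8.06, 9.21 and 8.75 in Allo-960S7, 6.33, 7.26 and 8.71 in the Allo-960 mix, 7.35, 7.68 and 9.12 in Blackbird and 4.31, 4.62 and 4.82 in 30A. All hexaploid arrays were above all 30A arrays (4.09, 17-fold, SE 0.54, adjusted p 2.91e-07), and the spread within Blackbird and the mix was wide. The 30A arrays of WZF1 lay near the array median, so the size of that fold is not secure. TBP1, the TATA-binding protein that helps to position RNA polymerase at promoters, read 8.13, 7.87 and 7.77 in Allo-960S7 and 7.38, 7.21 and 7.54 in 30A (0.55, adjusted p 0.00302). Of 6 histone and chromatin genes, 3 were called higher and 1 lower, with a median of 0.46; over all probe sets 12.3% were higher and 22.2% lower, with a median of -0.13. Hmgb3, a high-mobility-group protein that bends DNA, read 12.34, 12.26 and 11.93 in Allo-960S7 and 10.69, 10.80 and 11 in 30A (1.35, adjusted p 9.43e-08), and a further probe set of the gene differed by 2.96. The core histone genes were split: wcH2B-6 was higher by 0.64 (adjusted p 5.13e-05) and H2A-9 by 0.58 (adjusted p 0.00245), while wcH2B-8 was lower, at 5.38 ± 0.0917 in Allo-960S7 and 6.43 ± 0.235 in 30A (-1.05, adjusted p 3.02e-06). Of the 6 other probe sets of wcH2B-8, 1 was called higher and 2 lower. The second wcH2B-6 probe set was not called (adjusted p 0.996), and the wcH2B-6 call was lost over the mean of both (0.32). H2A-9 was called both ways, since an x-type probe set was lower (-0.54, adjusted p 0.0186) and another higher (0.30, adjusted p 0.0496).

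Of 8 lipid transfer and defence genes, LTP3 and GLU1A were called higher and none lower, where 12.3% and 22.2% of all probe sets were. LTP3 is a lipid transfer protein, one of the small secreted proteins that bind lipids at the leaf surface. It read 7.28, 7.04 and 7.62 in Allo-960S7, 8.14, 8.44 and 8.55 in the Allo-960 mix, 8.91, 8.63 and 8.81 in Blackbird and 4.5, 3.88 and 4.07 in 30A. The 4 groups did not overlap: the hexaploid was far above 30A (3.16, 8.94-fold, SE 0.2, adjusted p 7.28e-14) and below the mix by 1.07 on the log2 scale (adjusted p 0.000592). The 30A mean lay below the array median, so the size of that fold is not secure, but a second probe set with all 30A arrays at 8.16 or above differed by 2.96. GLU1A, a beta-glucosidase that frees benzoxazinoid defence compounds, read 6.71, 7.10 and 6.86 in Allo-960S7, 7.12, 11.67 and 11.85 in the Allo-960 mix, 7.73, 11.89 and 12.14 in Blackbird and 4.28, 4.76 and 4.18 in 30A. The difference was 2.48 (5.59-fold, SE 0.84, adjusted p 0.0212), and the first array of the mix and of Blackbird stood far below the others of their groups. This call was lost with the actin covariate (2.18), in a fit of the 12 arrays of the family alone (2.48), and without 30A replicate 1 (2.42), 30A replicate 3 (2.37) or Allo-960S7 replicate 2 (2.38). The 30A mean of GLU1A also lay below the array median, so the size of its fold is not secure. PR5, a pathogenesis-related protein, was 5.85 in Allo-960S7 and 6.58 in 30A and was not called (-0.73, adjusted p 0.348). Thionins of the THI1 type lay between 2.60 and 3.16 in Allo-960S7 and between 2.72 and 3.28 in 30A, under the array median.

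TPC1, a cation channel of the vacuole membrane, was the other strongly higher gene. It read 9.55, 9.34 and 8.94 in Allo-960S7, 9.54, 9.48 and 9.43 in Blackbird and 6.62, 7.34 and 7.93 in 30A. The hexaploid arrays were all above those of 30A (1.98, 3.95-fold, SE 0.19, adjusted p 8.88e-10). The proton pump gene ha1, at 12.98 in Allo-960S7 and 12.99 in 30A, was not called.

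**Figure D2:**
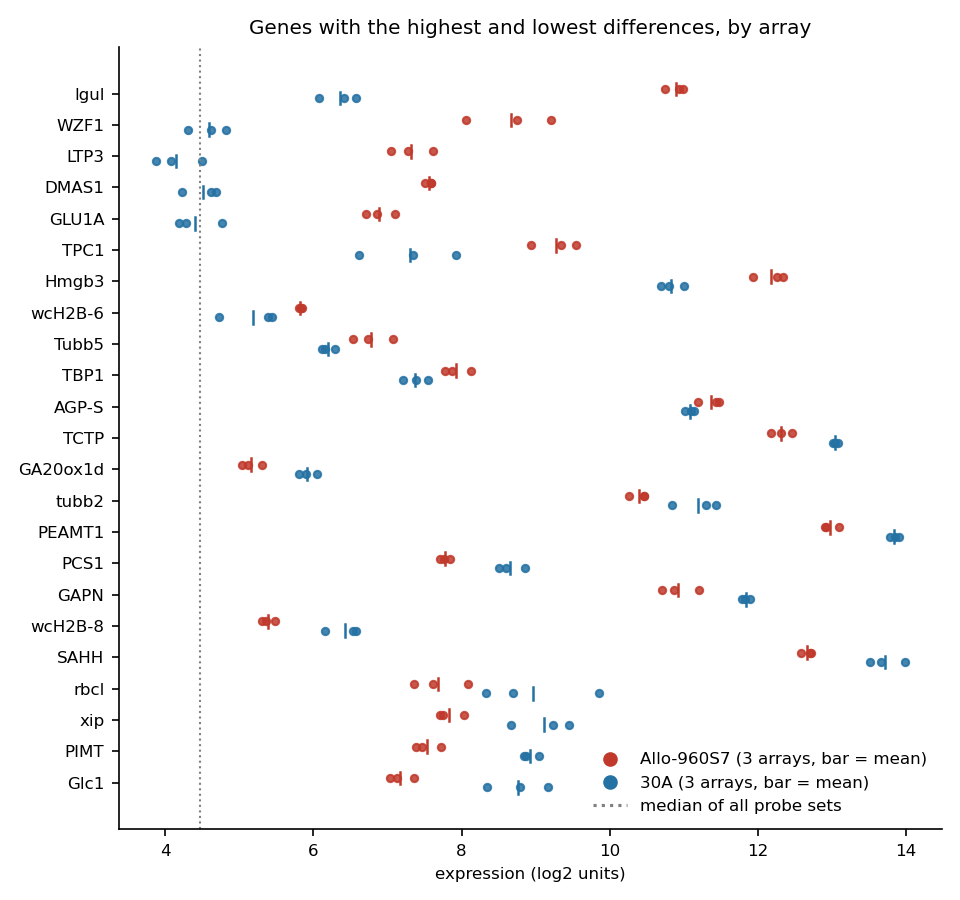
Level (x axis, log2 units) of the named genes with the highest and lowest differences in each array of Allo-960S7 and 30A, with the group mean as a bar and the median of all probe sets dotted. The genes at one end, led by lgul (10.89 in Allo-960S7 and 6.35 in 30A), lie right in the hexaploid, and those at the other, led by Glc1 (7.17 in Allo-960S7 and 8.76 in 30A), lie left.

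Genes of methyl transfer were lower together. All 4 members of this list were called lower, with a median of -0.96 against -0.13 over all probe sets, where 22.2% of all probe sets were called lower. PIMT repairs damaged aspartyl residues in proteins. It read 7.39, 7.47 and 7.72 in Allo-960S7, 7.12, 7.75 and 7.54 in the Allo-960 mix, 5.91, 6.17 and 6.49 in Blackbird and 8.87, 8.84 and 9.05 in 30A. The hexaploid lay between its parents, and its arrays overlapped those of the mix. It was 2.63-fold lower than 30A (-1.40, SE 0.21, adjusted p 2.5e-06). PEAMT1 makes phosphocholine, the base of choline and of many membrane lipids. It read 12.90, 12.92 and 13.09 in Allo-960S7, 13.56, 13.69 and 13.67 in the Allo-960 mix, 13.32, 13.47 and 13.48 in Blackbird and 13.90, 13.78 and 13.85 in 30A. Here the hexaploid was below both parents and the mix, with differences of -0.88 from 30A (SE 0.12, adjusted p 1.07e-06), -0.67 from the mix (adjusted p 0.000474) and -0.45 from Blackbird (adjusted p 0.00803).

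SAHH, which recycles the by-product of methyl transfer, read 12.58, 12.70 and 12.72 in Allo-960S7, 13.64, 13.56 and 13.54 in the Allo-960 mix, 13.26, 13.27 and 13.49 in Blackbird and 13.98, 13.66 and 13.51 in 30A. Its arrays in the hexaploid lay below all the others, at -1.05 from 30A (SE 0.3, adjusted p 0.00616) and -0.92 from the mix (adjusted p 0.0542). COMT1, a methyltransferase of lignin synthesis, read 9.32, 9.38 and 9.60 in Allo-960S7 and 10.16, 10.39 and 9.80 in 30A (-0.68, SE 0.25, adjusted p 0.0319). Its call was lost when arrays were centred on the hybridisation controls (-0.58), after a further quantile normalization (-0.59), with the actin covariate (-0.5), and without 30A replicate 1 (-0.66), 30A replicate 2 (-0.54), Allo-960S7 replicate 1 (-0.62) or Allo-960S7 replicate 2 (-0.65).

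Translation genes were mostly lower. Of 8, 6 were called lower and none higher, where 22.2% and 12.3% of all probe sets were, with a median of -0.48. This count depended on scaling, since centring on the hybridisation controls left 1 lower, and leaving out an array left 4 or 5. TCTP, a growth-related protein, averaged 12.32 ± 0.139 in Allo-960S7, 12.77 in the Allo-960 mix, 12.54 in Blackbird and 13.04 ± 0.0349 in 30A, which put the hexaploid 0.73 below 30A on the log2 scale (adjusted p 2.33e-07). The ribosomal gene RPL9 read 9.55, 10.09 and 10.05 in Allo-960S7, 10.60, 10.60 and 10.88 in the Allo-960 mix, 10.62, 10.59 and 11.10 in Blackbird and 10.58, 10.67 and 10.57 in 30A. The hexaploid arrays were lower than all of those, with -0.71 from 30A (SE 0.25, adjusted p 0.0304) and -0.80 from the mix (adjusted p 0.0475). Among the cap-binding proteins eIF4E was lower by 0.50 (adjusted p 0.000335) and NCBP by 0.46 (adjusted p 0.000678) on the log2 scale. The elongation factor TEF1 differed by -0.47 (adjusted p 0.0188) and RPS29 by -0.56 (adjusted p 0.00324). RPS29 lay near the array median, at 4.19 in Allo-960S7 and 4.75 in 30A. A second probe set was not called for TEF1 (-0.30, adjusted p 0.0915) or for RPS29 (-0.12, adjusted p 0.76). Initiation factor eIF4B, at 9.28 in Allo-960S7 and 9.03 in 30A, was not called.

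Enzymes of central metabolism moved in both directions. GAPN, a glyceraldehyde-3-phosphate dehydrogenase, read 10.70, 10.87 and 11.20 in Allo-960S7, 11.51, 11.54 and 11.44 in the Allo-960 mix, 11.24, 11.26 and 11.42 in Blackbird and 11.89, 11.83 and 11.78 in 30A. The hexaploid lay below the mix by 0.57 on the log2 scale (adjusted p 0.00102) and below 30A by 0.91 (adjusted p 1.15e-07). AdSS, an enzyme of purine synthesis, differed by -0.55 (adjusted p 7.45e-05), and PMM, which interconverts mannose phosphates, by -0.46 (adjusted p 0.00821). In starch synthesis AGP-S, the small subunit of ADP-glucose pyrophosphorylase, was higher by 0.28 (adjusted p 0.0251), and AGA.1, listed with the same pathway, was lower at 9.98 in Allo-960S7 and 10.35 in 30A (-0.37, adjusted p 0.0032). The call of AGP-S was lost without 30A replicate 2 (0.24), Allo-960S7 replicate 1 (0.25) or Allo-960S7 replicate 2 (0.22), in a fit of only these groups (0.28) and with hybridisation control centring (0.38). Such centring also ended the calls of PMM (-0.37) and AGA.1 (-0.27). That of PMM was lost without 30A replicate 3 (-0.36), and that of AGA.1 over the mean of its probe sets (-0.23).

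Of 7 genes of photosynthesis, none was called higher and 1, rbcl, lower, where 12.3% and 22.2% of all probe sets were. A second PsbP probe set, of the x type, was higher (0.45, adjusted p 0.000185). The Calvin cycle enzymes PRK and FBP averaged 14.20 and 12.40 in Allo-960S7 and 14.16 and 12.18 in 30A. The Rieske protein gene petC averaged 14.37 in Allo-960S7 and 14.47 in 30A (-0.10, adjusted p 0.324). The rbcl reading, the large subunit of Rubisco, came from a probe set shared by several transcripts, at 7.69 ± 0.372 in Allo-960S7 and 8.96 ± 0.792 in 30A (-1.27, adjusted p 0.000153). Of 27 other rbcl probe sets 1 was called higher and none lower, and their differences ran from -0.20 to 0.44. The pair of brightest ones averaged 14.98 and 14.95 in Allo-960S7 and 14.92 in 30A, so the direction of rbcl rests on 1 probe set.

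The gibberellin oxidases act in the synthesis of gibberellin hormones. GA20ox1d was lower, at 5.15 ± 0.142 in Allo-960S7 and 5.92 ± 0.125 in 30A (-0.77, adjusted p 0.00285), while GA20ox1a was higher by 0.32 (adjusted p 0.0399). The GA20ox1a call was lost with trend and robust variance settings, with the actin covariate and without any of 30A replicates 1, 2 and 3 (0.31 to 0.32) or Allo-960S7 replicates 2 and 3 (0.29). Of 7 cytoskeleton genes 1 was called higher and 2 lower, where 12.3% and 22.2% of all probe sets were. The tubulin tubb2 averaged 10.39 ± 0.118 in Allo-960S7 and 11.19 ± 0.308 in 30A (-0.80, adjusted p 0.00358), and Tubb5 6.78 ± 0.273 in Allo-960S7 and 6.19 ± 0.0862 in 30A (0.60, adjusted p 0.0219); other Tubb5 probe sets, given further on, were lower. The actin-binding profilin, at 13.60 in Allo-960S7 and 13.65 in 30A, was not called, but an x-type probe set of it was higher (0.43, adjusted p 5.21e-05). The tubulin TUBA, at 4.27 in Allo-960S7 and 4.55 in 30A, was not called either. A brighter x-type probe set of TUBA, at 10.85 in Allo-960S7 and 11.31 in 30A, was lower (-0.46, adjusted p 0.00429). Among inhibitors of foreign enzymes, xip, which blocks microbial xylanases, read 8.03, 7.71 and 7.75 in Allo-960S7 and 9.23, 8.66 and 9.45 in 30A (-1.28, SE 0.26, adjusted p 0.000176), and a second probe set was lower by 1.46 on the log2 scale. On the probe set read for each gene, the lowest called difference was that of Glc1, 7.17 ± 0.169 in Allo-960S7 and 8.76 ± 0.41 in 30A (-1.59, SE 0.3, adjusted p 7.1e-05).

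The serpin, protein folding and cold or dehydration lists, 4, 2 and 5 genes, had no call in either direction. Of them 4 serpins and 4 cold or dehydration genes were under or near the array median in both groups, so these data say little about them.

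Of the 102 named genes 47 had several probe sets. Of 13 with several called, 7 were called in one direction and 6 in both directions. One Prx1 probe set, Ta.6572.1.S1_at, read 12.08, 12.45 and 12.45 in Allo-960S7, 12.31, 12.19 and 12.46 in Blackbird and 3.48, 2.79 and 2.91 in 30A (9.27, adjusted p 1.73e-23). Another, Ta.6572.2.S1_at, read 12.25, 12.63 and 12.67 in Allo-960S7, 4.07, 3.98 and 4.13 in Blackbird and 13.44, 13.52 and 13.35 in 30A (-0.92, adjusted p 0.000194). A further one, Ta.6572.1.S1_a_at, was bright in all of these groups and averaged 12.57 in Allo-960S7, 11.78 in Blackbird and 12.58 in 30A. The first and second signals were both high in the hexaploid, where each parent had 1 of them near the floor.

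GSTZ1 and Tubb5 also had probe sets called in both directions. For GSTZ1, TaAffx.56524.1.S1_at averaged 9.37 in Allo-960S7, 10.15 in Blackbird and 2.78 in 30A (6.59, adjusted p 4.56e-20), while the a-type probe set stood at 10.06 in Allo-960S7, 10.22 in Blackbird and 10.48 in 30A. For Tubb5, Ta.214.2.A1_at averaged 6.04 in Allo-960S7, 4.92 in Blackbird and 9.16 in 30A (-3.13, SE 0.25, adjusted p 1.21e-11), while Ta.214.1.S1_at, the one used above, read 7.08, 6.74 and 6.53 in Allo-960S7 and 6.16, 6.12 and 6.29 in 30A. The Tubb5 call was lost without 30A replicate 1 (0.58), 30A replicate 2 (0.56) or Allo-960S7 replicate 1 (0.45). The direction of such a gene depended on the probe set read, and 30 of the 105 annotated genes with several called probe sets were called in both directions.

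**Figure D3:**
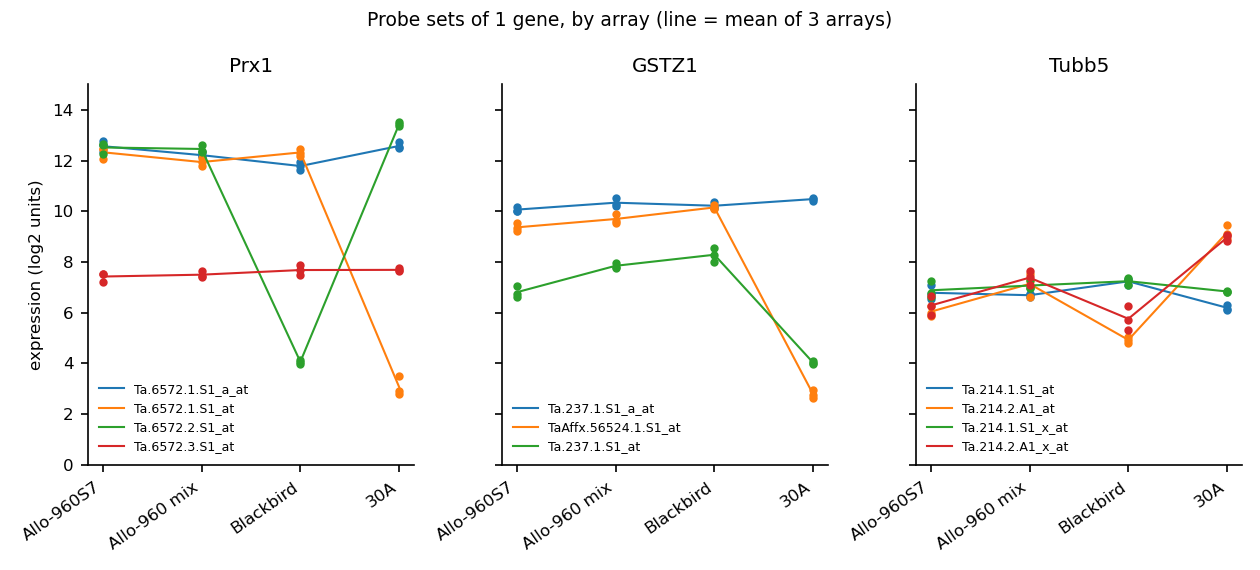
Level (y axis, log2 units) of each probe set of Prx1, GSTZ1 and Tubb5 in Allo-960S7, Allo-960 mix, Blackbird and 30A; points are arrays and lines join group means. For Prx1, Ta.6572.1.S1_at averages 3.06 in 30A and 12.33 in Allo-960S7, while Ta.6572.2.S1_at averages 4.06 in Blackbird and 12.52 in Allo-960S7.

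The hexaploid's distance from the mixed RNA was smaller than its distance from 30A. The array counts were 5227 called against the mix (8.54%; 2017 higher and 3210 lower), 11771 against Blackbird (19.2%) and 21101 against 30A (34.5%), and these comparisons share arrays. Of the 102 named genes, 17 (16.7%) were called against the mix, 4 higher and 13 lower. The 4 higher were FBP, H2A-9, raftin1b and the fructan-degrading enzyme 1-FEH. Among BBAA-enriched probe sets 480 (20.1%) were lower than the mix and 136 (5.7%) higher, against 5.25% and 3.3% of all probe sets. Among D-enriched ones 186 (8.92%) were lower and 133 (6.38%) higher. The class medians against the mix were -0.16 for BBAA-enriched and -0.09 for D-enriched probe sets, against 0.03 for all.

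**Figure D4:**
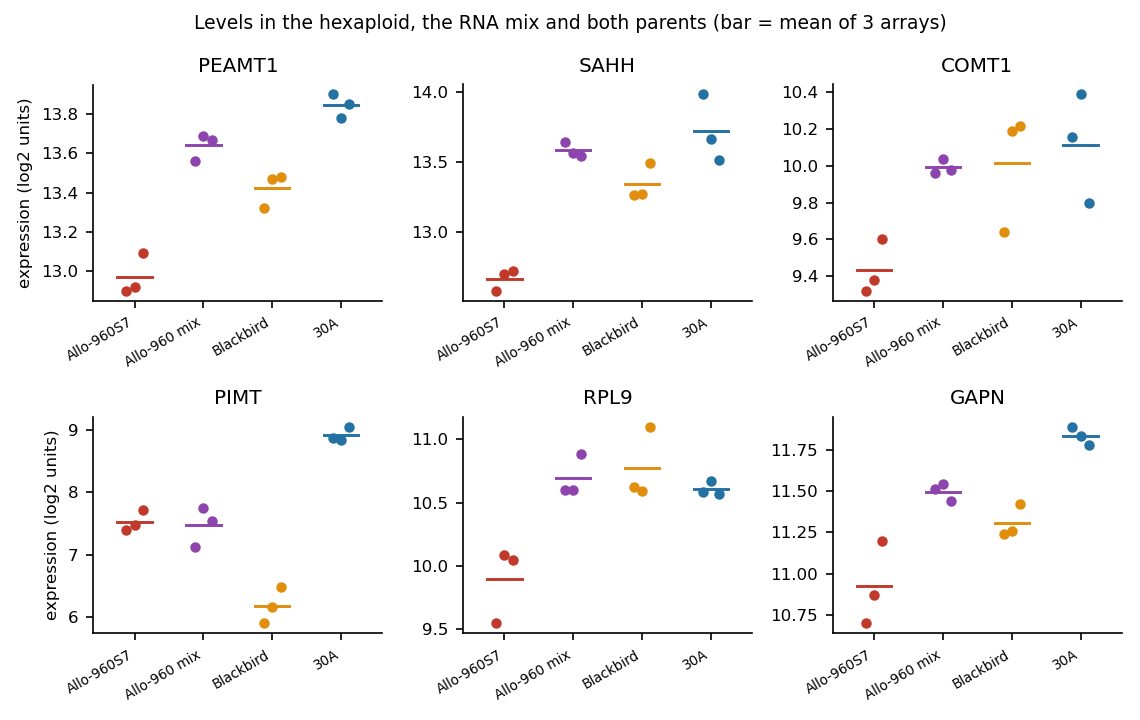
Level (y axis, log2 units) of individual genes in the arrays of Allo-960S7, Allo-960 mix, Blackbird and 30A, with group means as bars. The genes are PEAMT1, SAHH, COMT1, PIMT, RPL9 and GAPN. For PEAMT1 the hexaploid mean of 12.97 lies below those of the other 3 groups.

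The second cross gave a similar overall pattern. XX329 against TQ18 gave 22518 calls (36.8%), 7952 higher and 14566 lower, on arrays not used for the first cross. Of the 7542 probe sets higher in Allo-960S7, 5441 (72.1%, or 68.4% of those higher in XX329) were higher in XX329 too, and 234 (3.1%) were lower. Of the 13559 lower in Allo-960S7, 8269 (61%, or 56.8% of those lower in XX329) were lower in XX329, and 219 (1.62%) were higher. Over the whole array, the XX329 calls were 13% higher and 23.8% lower. The differences of the crosses correlated at r = 0.84 across 61179 probe sets, which share the array design and are not independent. The higher genes lgul, WZF1 and DMAS1 were higher in XX329 than in TQ18 by 23.9-, 16.7- and 7.44-fold.

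The crosses also differed. In a test of the difference itself, the contrast of Allo-960S7 minus 30A with XX329 minus TQ18, 5981 probe sets (9.78%) passed, 2816 (4.6%) with a positive and 3165 (5.17%) with a negative value. Of the 102 named genes, 15 (14.7%) passed. LTP3 read 4.45, 4.72 and 4.94 in XX329 and 4.18, 4.46 and 4.41 in TQ18, a difference of 0.35 against 3.16 in the first cross (2.81 between the crosses, SE 0.29, adjusted p 2.17e-08). TPC1 read 9.02, 8.62 and 8.35 in XX329 and 8.30, 8.14 and 8.28 in TQ18, or 0.42 against 1.98 (1.56, SE 0.27, adjusted p 0.000169). On the probe sets read, both genes differed more in the first cross. For LTP3 the XX329 and TQ18 arrays lay near the array median on that probe set. Over the mean of its probe sets the LTP3 difference between the crosses fell to 1.1, so its size depended on the probe set read.

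The histone gene wcH2B-8 read 5.24, 5.28 and 5.54 in XX329 and 7.64, 7.50 and 7.18 in TQ18, a larger drop than in the first cross (1.04 between the crosses, adjusted p 0.00196). With hybridisation control centring this call was lost (1.03, adjusted p 0.0594). The tubulin tubb2 read 11.34, 11.54 and 11.36 in XX329 and 11.38, 11.23 and 10.42 in TQ18 (0.40, adjusted p 0.143), against -0.80 in the first cross (-1.20 between the crosses, adjusted p 0.00787). TCTP differed by -0.59 between the crosses (adjusted p 0.00343), a call lost with control centring (-0.60, adjusted p 0.214) and in a fit of only these groups (adjusted p 0.0536). The GAPN difference of -0.53 (adjusted p 0.0311) was lost with control centring (-0.54), in a fit of only these groups, and without 30A replicates 1 or 2, Allo-960S7 replicates 1 or 2, TQ18 replicates 1 or 3, or XX329 replicates 2 or 3 (-0.53 to -0.42).

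**Figure D5:**
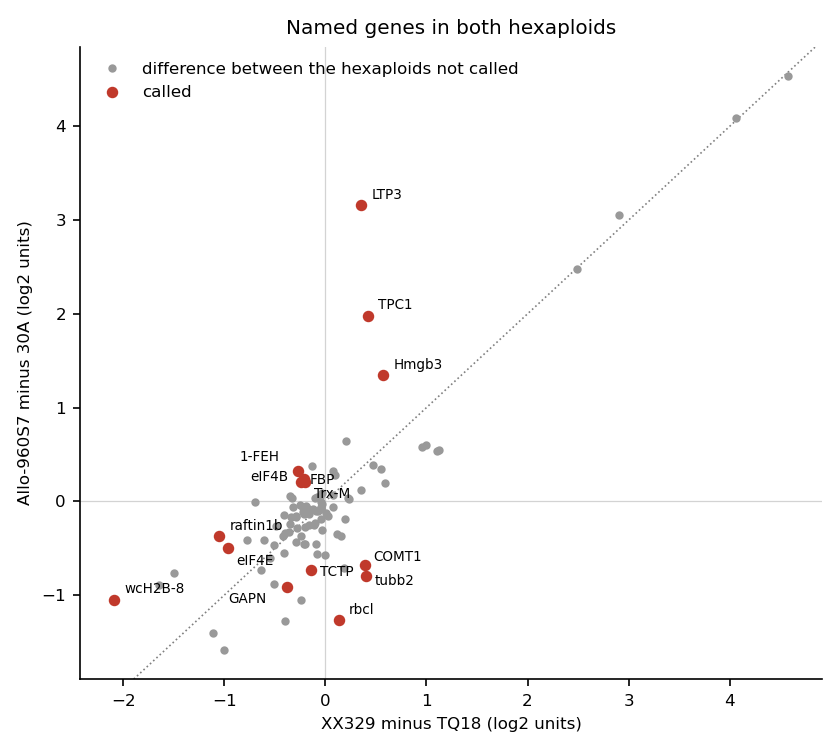
Difference Allo-960S7 minus 30A (y axis, log2 units) against XX329 minus TQ18 (x axis, log2 units) for the 102 named genes, with red points for genes whose difference between the crosses was called (15 genes). LTP3 (3.16 in the first cross and 0.35 in the second) and TPC1 (1.98 and 0.42) lie above the diagonal.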

How the data were processed

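Leaf RNA of 11 groups, 3 arrays each, was measured on the Affymetrix wheat GeneChip; 6 µg of total RNA was labelled per array, per the labels' protocols. The authors deposited log2 expression values, for each probe set on each array; RMA and limma are named in the submitters' processing notes, with versions not given in the sources used here. The 111 Affymetrix control probe sets were left out and 61179 were tested. There is no read depth for arrays, so the precision is limited by how many there are.

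All 33 arrays entered a single cell-means model in limma 3.58.1 under R 4.3.3 (lmFit, eBayes; 22 residual and 28.51 total degrees of freedom). Benjamini-Hochberg adjustment of p ran over the 61179 probe sets of each contrast, and an adjusted p under 0.05 was called. All tests are two-sided, and every SE is that of the fit. The members and gene lists were chosen with earlier results of these data known. The lists were put together by symbol and alias, since the reference tables held no gene descriptions by which the planned lists could be matched. A gene was read from its brightest probe set over all arrays, avoiding the x type where another existed. Named genes were at most the 12 highest and 12 lowest called differences whose arrays did not overlap, which gave 11 higher and 12 lower genes. The higher group mean of such a gene also had to lie at least 1 log2 unit above the array median. Added to them were the 2 called members of each list with the smallest adjusted p, and for the difference between the crosses the 5 highest and 5 lowest called. Genes outside these were picked for their role after their values were seen. Symbols came from the platform annotation, and RefSeq (IWGSC CS RefSeq v2.1) was used for names only.

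Same-numbered replicates did not pair the arrays: their deviations correlated at -0.04 to 0.07 for Allo-960S7 and 30A and at -0.14 to -0.02 for XX329 and TQ18. Alternatives covered size, dim and shared probe sets, scaling, variance model, array weights, pairing, arrays in the fit, an actin covariate and each array left out. On simulated data with 200 changed probe sets among 61179, 34% of 1.5-fold changes and 85% of 2-fold changes were found for Allo-960S7 against 30A, with 6 false calls, and 11% and 56% for the difference between the crosses, with 0 false calls. Far more probe sets were called in the real comparisons (34.5% for Allo-960S7 against 30A). The Benjamini-Hochberg cut is less strict there, so these simulated shares and false calls do not carry over to them.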

Additional observations from a re-analysis of the deposited data

Results flagged for a closer look

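The difference between the crosses, Allo-960S7 minus 30A against XX329 minus TQ18, was tested as a contrast of its own and called 5981 probe sets. Among named genes it was positive for LTP3 (2.81), TPC1 (1.56), wcH2B-8 (1.04), Hmgb3 (0.78), raftin1b (0.68), 1-FEH (0.59), eIF4E (0.47), FBP (0.45), eIF4B (0.45) and Trx-M (0.4), all in log2 units. It was negative for rbcl (-1.4), tubb2 (-1.2), COMT1 (-1.06), TCTP (-0.59) and GAPN (-0.53). The calls of LTP3, TPC1 and tubb2 held in every alternative run, although the LTP3 value fell to 1.1 over the mean of its probe sets. The calls of Hmgb3 and raftin1b were lost in 10 each, of GAPN in 11 and of COMT1 in 14. Control centring ended these last 4 and also wcH2B-8 and TCTP. A fit of only the groups compared ended the same 4, TCTP and rbcl. Hmgb3 was also lost without 30A replicates 1 or 2, Allo-960S7 replicates 1 or 2, TQ18 replicate 3 or XX329 replicate 3 (0.55 to 0.76). Raftin1b was also lost without 30A replicate 1, Allo-960S7 replicates 1 or 2, TQ18 replicate 3 or XX329 replicates 2 or 3 (0.52 to 0.66). The other 5 genes, 1-FEH, eIF4E, FBP, eIF4B and Trx-M, were not run under the alternatives. Raftin1b, known from the anther tapetum, averaged 5.80 in Allo-960S7 and 6.17 in 30A, and 5.41 in XX329 and 6.45 in TQ18. For eIF4E the levels were 9.87 in Allo-960S7 and 10.37 in 30A, and 9.96 in XX329 and 10.92 in TQ18. FBP, Trx-M, 1-FEH and eIF4B were not called in Allo-960S7 against 30A, with differences of 0.21, 0.21, 0.32 and 0.24. Each cross lies within its own set of arrays by hybridisation controls, so the contrast spans both sets. Groups of 3 arrays were too small for a test of single outlying arrays.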

How the results depend on the processing

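With a 2-fold minimum 8461 probe sets were called for Allo-960S7 against 30A, 8355 for XX329 against TQ18 and 2926 for the difference between the crosses. Centring on hybridisation controls gave 3397 for that difference and 15026 for XX329, of which 51.3% were higher against 35.3% on the deposited values. In fits of only the groups compared, XX329 gave 14329 calls and the difference 3624, while Allo-960S7 against 30A gave 22271, more than the 21101 of the main fit. A fit of the 12 arrays of the Allo-960 family gave 23404 for Allo-960S7 against 30A. For the difference, the planned fit of 12 arrays is the fit of only the groups compared. Leaving out 1 array gave 18467 to 19052, 19938 to 22263 and 4779 to 6988 calls. With the replicate block the counts were 20796, 23248 and 6363; of the named calls it ended that of COMT1 between the crosses. Replicate numbers matched best in 1 of 3 and 0 of 3 pairs.

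The D-enriched median was -1.19 with a 2-fold class and -1.55 or -1.50 with classes from TTR13 or TD265 alone (-1.63 to -1.57 without 1 array). The BBAA-enriched median was 1.77, 2.41 and 2.35 in the same settings and 2.55 with control centring (2.80 to 2.85 without 1 array). Over the mean of all probe sets, Tubb5 (-1.29), GSTZ1 (2.98) and the rbcl difference between the crosses (0.04) changed sign. Of 43 gene results, 14 kept their call in every alternative that tested them. Control centring ended 9 of 33 calls against 30A and 6 of 10 between the crosses. The cause of these changes was not tested, except that a larger minimum leaves fewer calls. Fits of fewer arrays gave fewer calls in some comparisons and more in others. Signals below the array median bear no secure fold.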
